A study of Homo sapiens with 4 samples.

Results

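The genes described here are 31 targets and regulators of the transcription factor p53, chosen by name from a list, out of 62710 Ensembl genes in the table. All 31 names were matched to a gene identifier in the table. Messenger RNA was sequenced from HGC27 and MKN45, established human gastric cancer cell lines, after 24 h in 0.3 µM periplocymarin, a plant cardiac glycoside that blocks the Na,K-ATPase, or in 0.1% DMSO, the vehicle. HGC27 is undifferentiated and MKN45 poorly differentiated. The groups were treated HGC27, vehicle HGC27, treated MKN45 and vehicle MKN45, with 1 library each. Differences inside a line therefore rest on 1 treated and 1 vehicle library and are given without a p-value.

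p53 is kept low in unstressed cells by MDM2, a ubiquitin ligase that marks it for degradation, and by MDM2's relative MDM4. When DNA is damaged or growth is disturbed, p53 accumulates and binds DNA near genes of cell cycle arrest, DNA repair, metabolism and cell death. It also binds at MDM2 itself, which closes a feedback loop.

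Values are FPKM, reads per gene scaled to gene length and library size, so levels of different genes can be set side by side. Whole reads recovered from the FPKM numbered 24894180 in treated and 26811964 in vehicle HGC27, and 27678237 in treated and 36573331 in vehicle MKN45. The epithelial markers CDH1, EPCAM, KRT8, KRT18, KRT19, CEACAM6 and MUC1 were all at 1 FPKM or more in both MKN45 libraries, and MUC1 alone of the 7 reached it in both HGC27 libraries. Of the 5 mesenchymal genes VIM, COL3A1, FN1, SPARC and CDH2, 4 reached 1 FPKM in each HGC27 library and 0 in each MKN45 library. The 5 summed to 779 FPKM in treated and 595 FPKM in vehicle HGC27. Among them the filament gene VIM stood at 379.6 FPKM in treated and 406 FPKM in vehicle HGC27, lower in the treated library, unlike the sum. Of 4 leukocyte genes CD68 alone reached 1 FPKM, at 2.46 FPKM in treated and 1.07 FPKM in vehicle MKN45, and the 4 summed to 0.103 FPKM in treated and 0.544 FPKM in vehicle HGC27. Most of the CD68 exons are shared with another gene model on the same strand. The endothelial genes PECAM1, VWF and CDH5 were under 1 FPKM in all 4 libraries.

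The DNA that p53 recognises can be shown for members whose promoter window holds a match. Windows from 250 bases before to 50 bases after a RefSeq start site (GRCh38.p14) were used for 26 members, and the windows of the other 5 were not analysed here. The consensus p53 site is made of 2 adjoining copies of a 10-base element, and both strands were searched for it. With up to 2 of its 20 bases different, it was found in the windows of 3 of the 26 members, DDB2, MDM2 and AEN, against 0.820% of 27305 genes. This search, with its allowance, was added after the data were seen. The stretches below run 5′ to 3′ from 250 bases before the start to 20 after it, with the 20-base match in capitals. They are shown because these 3 genes lay in different directions after the drug, as given by role further on.
DDB2 (chr11:47214724-47214993, plus strand): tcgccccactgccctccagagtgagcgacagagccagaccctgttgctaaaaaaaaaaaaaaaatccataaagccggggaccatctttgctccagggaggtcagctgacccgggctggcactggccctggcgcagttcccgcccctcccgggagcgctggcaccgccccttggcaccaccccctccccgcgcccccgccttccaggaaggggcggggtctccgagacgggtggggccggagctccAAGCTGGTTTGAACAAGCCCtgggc
MDM2 (chr12:68808767-68809036, plus strand): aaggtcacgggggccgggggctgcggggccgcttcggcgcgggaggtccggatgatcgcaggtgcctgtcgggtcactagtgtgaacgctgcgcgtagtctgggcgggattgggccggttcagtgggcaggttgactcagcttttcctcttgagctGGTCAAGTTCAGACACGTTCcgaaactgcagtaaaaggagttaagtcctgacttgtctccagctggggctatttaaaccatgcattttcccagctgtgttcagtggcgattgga
AEN (chr15:88621090-88621359, plus strand): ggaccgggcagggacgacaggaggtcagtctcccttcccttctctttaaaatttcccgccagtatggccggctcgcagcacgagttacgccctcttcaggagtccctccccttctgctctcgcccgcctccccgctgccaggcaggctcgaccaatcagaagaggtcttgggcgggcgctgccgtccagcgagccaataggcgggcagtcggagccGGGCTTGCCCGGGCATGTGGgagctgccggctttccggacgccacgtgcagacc
The match differed from the consensus at 1 base in DDB2 and at 2 bases in MDM2 and in AEN. Its first base lay at -5 relative to the start in DDB2, at -94 in MDM2 and at -34 in AEN. The starts used for all 3 lie inside the gene, downstream of the first base of the GENCODE 29 model. The pattern chosen first, CATGNNNNNNCATG, reads the same on both strands and was found in 1 of the 26 members, TRIAP1, against 0.472% of all genes. The TRIAP1 window is shown whole, since TRIAP1 rose after the drug, with the pair of CATG cores in capitals.
TRIAP1 (chr12:120446335-120446634, minus strand): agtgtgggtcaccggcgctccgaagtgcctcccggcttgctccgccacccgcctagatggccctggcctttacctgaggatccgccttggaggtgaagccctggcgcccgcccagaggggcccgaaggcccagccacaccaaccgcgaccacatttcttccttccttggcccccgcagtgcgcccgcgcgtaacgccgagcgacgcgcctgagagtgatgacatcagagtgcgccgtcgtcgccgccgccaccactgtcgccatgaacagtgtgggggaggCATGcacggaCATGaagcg
The pair began at base 32 after the start, and the nearest stretch of the TRIAP1 window differed from the consensus at 4 bases. A single CATG, which overlaps every pair, was found in 11 of 26 members, against 60.6% of all genes. The CES2 window held no CATG, and its nearest stretch differed from the consensus at 3 bases. A match is only a description of the letters in these windows.

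Before treatment the lines differed in these genes. Of 28 members averaging 1 FPKM or more in the vehicle libraries, 9 were at least 2-fold higher in vehicle MKN45 than in vehicle HGC27 on the log2(FPKM + 1) scale, a share of 32.1%. The same was true of 17.4% of 13031 genes. Only PLK2 and NINJ1 among the 28 were at least 2-fold lower in MKN45, against 14.3% of all genes. The median member difference, MKN45 minus HGC27, was 0.37 on the log2 scale, against 0.039 over all genes. In these libraries of whole cultures, fewer cells with a transcript and less RNA per cell cannot be told apart.

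MDM2 stood at 41.3 FPKM in vehicle MKN45 and 6.97 FPKM in vehicle HGC27, a ratio of 5.93. CDKN1A, the cyclin-dependent kinase inhibitor p21, stood at 13.9 FPKM in vehicle MKN45 and 3.96 FPKM in vehicle HGC27. PERP, a membrane protein of desmosomes, was the highest member in MKN45, at 103 FPKM, and stood at 7.15 FPKM in vehicle HGC27. Each of these has a known role as a direct p53 target. PHLDA3, which restrains the kinase AKT, stood at 4.76 FPKM in vehicle MKN45 and 0.0765 FPKM, or 8 reads, in vehicle HGC27. CYFIP2, a subunit of the actin-regulating WAVE complex, had 0 reads in both HGC27 libraries, and its 5.52 FPKM in vehicle MKN45 was at least 628-fold higher than the 3 reads that a count of 0 allows in vehicle HGC27. CDIP1 and TNFRSF10C also had 0 reads in both HGC27 libraries. DRAM1, a lysosomal membrane protein of autophagy, was 9.55-fold higher in vehicle MKN45. RRM2B, ZMAT3 and TRIAP1 complete the 9. PLK2, a polo-like kinase, was lower in vehicle MKN45, at 7.70 FPKM against 25.5 FPKM in vehicle HGC27.

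Of 43 measured genes on a second list, other known p53 targets, 20 were at least 2-fold higher in vehicle MKN45 (46.5%) and 2 at least 2-fold lower. The 7 epithelial markers summed to 2378 FPKM in vehicle MKN45 and 4.67 FPKM in vehicle HGC27, and PERP and several other listed genes are also expressed in epithelia. The part of epithelial character in these differences was not tested.

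**Figure D1:**
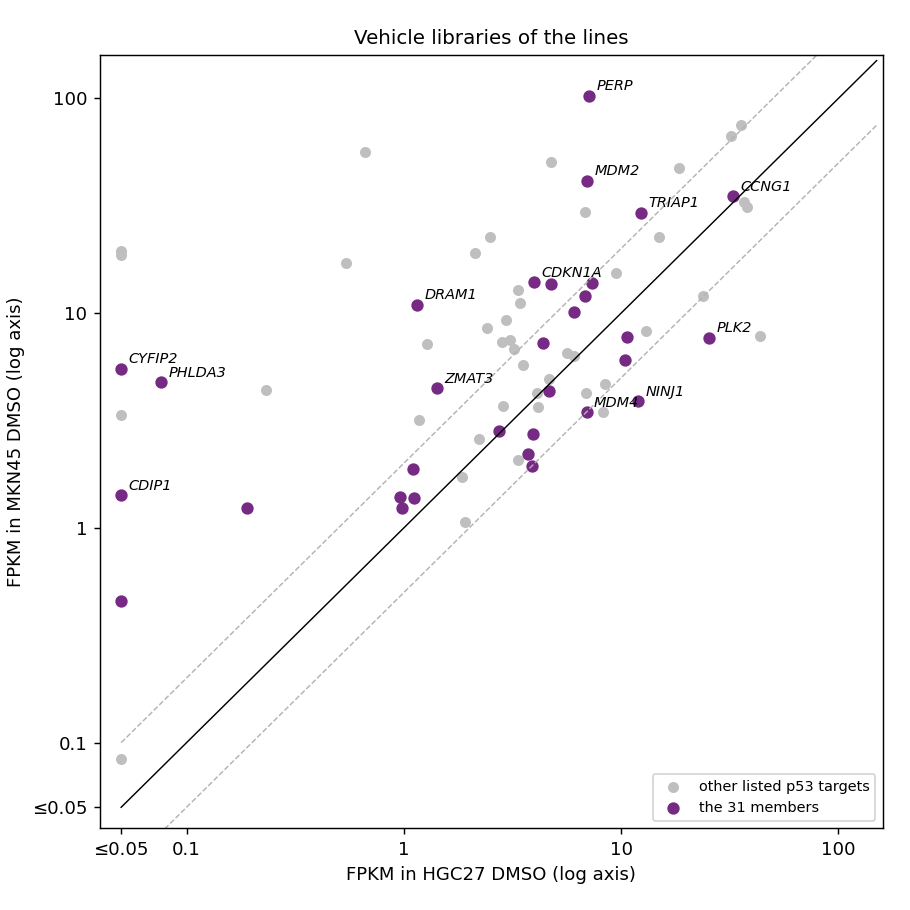
FPKM of the 31 members (purple) and of the other listed p53 targets (grey) in the vehicle libraries, HGC27 on the horizontal and MKN45 on the vertical axis, both logarithmic, with 1 point per gene. The solid line marks equal values and the dashed lines a 2-fold ratio, and values under 0.05 are drawn at 0.05. PERP, MDM2, DRAM1, PHLDA3 and CYFIP2 lie far above the line, and PLK2 and NINJ1 below it.

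Over both lines 27 of the 31 were tested with limma on log2(FPKM + 1), which took the line as a block and adjusted p-values over 12374 genes, and 1 rose, TRIAP1, and 1 fell, CES2. The other 25 did not pass. Among all genes tested 3.49% rose and 3.29% fell, and the share of members called, 7.41%, was near the 6.78% of all genes. The median fitted log2 fold of the members was 0.13, against 0.061 over all genes, with 15 fitted above 0 and 12 below. The other 4 members, TP53INP1, SPATA18, CDIP1 and TNFRSF10C, were under the minimum of a mean of 1 FPKM. Mitochondrial genes took 3.39% of reads in treated and 6.91% in vehicle HGC27, and 5.11% in treated and 11.1% in vehicle MKN45. The epithelial markers summed to 3825 FPKM in treated and 2378 FPKM in vehicle MKN45, and to 1.62 FPKM in treated and 4.67 FPKM in vehicle HGC27. The part of either in the members' values was not tested.

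TRIAP1, a mitochondrial inhibitor of apoptosis, had 38.2 FPKM in treated and 12.4 FPKM in vehicle HGC27. It had 62.1 FPKM in treated and 29.3 FPKM in vehicle MKN45. Both treated libraries lay above both vehicle libraries. The fitted log2 fold was 1.30 ± 0.28 (limma moderated SE), upward in both lines, with a Benjamini-Hochberg adjusted p of 0.0329. With quantile normalization it was 0.93 and no longer passed, with a limma adjusted p of 0.0725.

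CES2, a carboxylesterase that hydrolyses ester drugs, had 1.049 FPKM in treated and 6.04 FPKM in vehicle HGC27. It had 2.82 FPKM in treated and 10.1 FPKM in vehicle MKN45. Both treated libraries lay below both vehicle libraries, and CES2 fell, with a fitted log2 fold of -1.66 ± 0.29 (limma moderated SE, adjusted p = 0.0242). Neither gene passed limma without the line block or without a filter on low values, settings under which no gene passed.

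**Figure D2:**
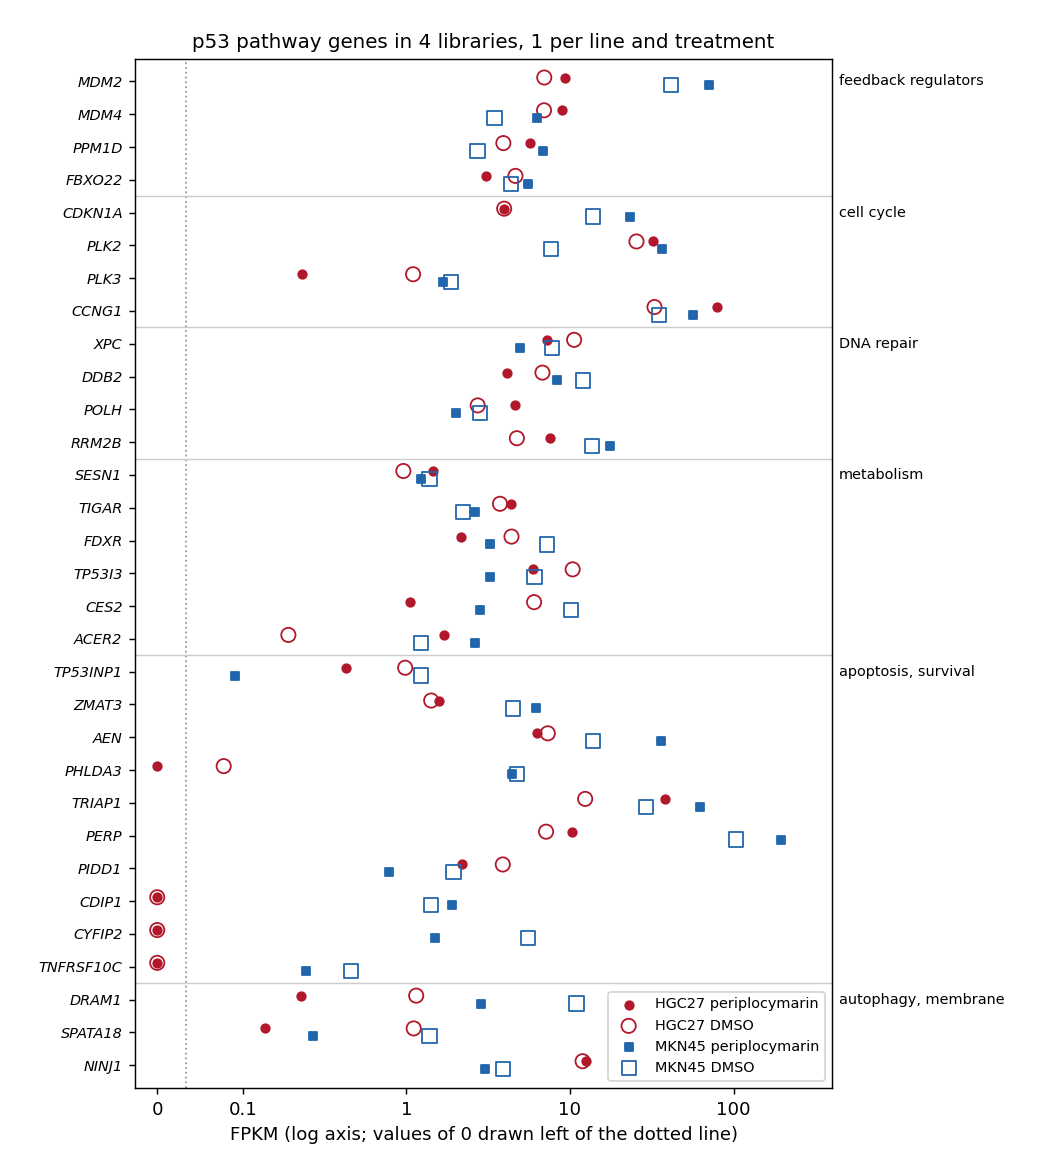
FPKM of each member (rows, grouped by role) in the 4 libraries, on a logarithmic axis, with circles for HGC27, squares for MKN45, filled symbols for periplocymarin and open symbols for DMSO. Filled symbols lie right of open ones in both lines for TRIAP1 and left of them for CES2, and 3 genes were at 0 in both HGC27 libraries.

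A gene counted as measured in a line when its treated and vehicle libraries averaged 1 FPKM or more. The 2-fold counts that follow were made on the log2(FPKM + 1) scale, where low genes lie closer together. In HGC27 22 members were measured, of which 2 were at least 2-fold higher in the treated library (CCNG1 and TRIAP1, 9.09%) and 1 at least 2-fold lower (CES2, 4.55%). Among all 11821 genes measured there 9.72% were that much higher and 10.4% that much lower. In MKN45 28 were measured, of which 4 were at least 2-fold higher (PPM1D, PLK2, AEN and TRIAP1, 14.3%) and 3 at least 2-fold lower (CES2, CYFIP2 and DRAM1, 10.7%). The shares over 11895 genes were 8.21% and 8.94%. By the FPKM ratio ACER2 was also past 2-fold in MKN45, 2.12-fold higher in the treated library. FDXR and PIDD1 were 2.22-fold and 2.46-fold lower there, and FDXR was 2.02-fold lower in treated HGC27. Shares over all genes were not counted by that ratio. Treated minus vehicle, the median member difference in log2(FPKM + 1) was 0.14 in HGC27 and 0.22 in MKN45, against 0.11 and 0.068 over all measured genes. At 1 to 4 genes each, the members' shares rest on few genes.

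The 4 feedback regulators were all higher in treated MKN45 and mostly higher in treated HGC27, as were 53.5% and 55.4% of all measured genes. MDM2 had 9.33 FPKM in treated and 6.97 FPKM in vehicle HGC27. It had 71.1 FPKM in treated and 41.3 FPKM in vehicle MKN45, and its fitted log2 fold of 0.57 ± 0.28 did not pass (limma adjusted p = 0.216). MDM4, which blocks the activation domain of p53, had 8.96 FPKM in treated and 6.95 FPKM in vehicle HGC27. MDM4 had 6.30 FPKM in treated and 3.46 FPKM in vehicle MKN45, ratios of 1.29 and 1.82 treated over vehicle. PPM1D, the phosphatase WIP1 that switches p53 and checkpoint kinases off again, had 5.73 FPKM in treated and 3.92 FPKM in vehicle HGC27. It had 6.84 FPKM in treated and 2.73 FPKM in vehicle MKN45, the largest ratio of the 4 regulators in MKN45, with a fitted log2 fold of 0.76 ± 0.30 (limma adjusted p = 0.137). FBXO22, a subunit of a ubiquitin ligase, was lower in treated HGC27 and higher in treated MKN45, with 3.09 FPKM in treated and 4.64 FPKM in vehicle HGC27 and 5.53 FPKM in treated and 4.35 FPKM in vehicle MKN45.

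Among the cell cycle genes none passed. CDKN1A had 3.97 FPKM in treated and 3.96 FPKM in vehicle HGC27, the same value within counting error. CDKN1A had 23.2 FPKM in treated and 13.9 FPKM in vehicle MKN45, a log2 ratio of 0.74 with a 95% exact binomial interval of 0.64 to 0.84, and it did not pass over both lines (limma adjusted p = 0.471). Intervals of this kind cover counting error alone. CDKN1A shares 146 bases with an antisense gene named DINOL in GENCODE 29, and since no strand setting is given, reads in shared bases cannot be told apart. PLK2, which acts in centriole duplication and the stress response, had 32.1 FPKM in treated and 25.5 FPKM in vehicle HGC27. It had 36.6 FPKM in treated and 7.70 FPKM in vehicle MKN45, the largest ratio of the measured members in MKN45, 4.76. The treated lines were thus close, and the vehicle lines apart. Its fitted log2 fold of 1.22 ± 0.40 did not pass over all genes (limma adjusted p = 0.0875), and passed when genes averaging under 10 FPKM were left out (limma adjusted p = 0.00214). The PLK2 difference in log2(FPKM + 1) was 0.32 in HGC27 and 2.11 in MKN45. At that floor 84.1% of all calls were upward, and a pass there need not mean that the lines agree. PLK3, a relative of PLK2, had 0.230 FPKM in treated and 1.10 FPKM in vehicle HGC27, and 1.66 FPKM in treated and 1.88 FPKM in vehicle MKN45. CCNG1, cyclin G1, which brings a phosphatase to MDM2, had 79.6 FPKM in treated and 32.9 FPKM in vehicle HGC27. CCNG1 had 56.7 FPKM in treated and 35.0 FPKM in vehicle MKN45. It was higher in both treated libraries, and its fitted log2 fold of 0.96 ± 0.29 did not pass (limma adjusted p = 0.0675). CCNG1 passed at a pseudocount of 0.1 (limma adjusted p = 0.0455) and without genes averaging under 10 FPKM (limma adjusted p = 0.0132). With limma-voom on recovered reads it passed at the library sizes of the deposited FPKM (adjusted p = 0.0436). With TMM (trimmed mean of M values) library sizes it did not (limma-voom adjusted p = 0.0695). With quantile normalization its fitted log2 fold was 0.49 and its HGC27 difference 0.67, under 2-fold, and it did not pass (limma adjusted p = 0.264). With library totals alone the fold was 0.68 (limma adjusted p = 0.107).

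The DNA repair genes divided. XPC, which finds distorted DNA in nucleotide excision repair, had 7.26 FPKM in treated and 10.6 FPKM in vehicle HGC27, and 4.94 FPKM in treated and 7.77 FPKM in vehicle MKN45. DDB2, which binds ultraviolet damage ahead of XPC, had 4.13 FPKM in treated and 6.79 FPKM in vehicle HGC27, and 8.34 FPKM in treated and 12.0 FPKM in vehicle MKN45. Both were lower in each treated library, with fitted log2 folds of -0.53 ± 0.28 and -0.54 ± 0.28 that did not pass (limma adjusted p = 0.248 and 0.237). XPC overlaps LSM3 and 2 other genes on the opposite strand, and FBXO22, above, shares 16.2% of its exons with NRG4 on the opposite strand. RRM2B, a subunit of ribonucleotide reductase that supplies nucleotides for repair, was higher in each treated library, at 7.60 FPKM in treated and 4.74 FPKM in vehicle HGC27 and 17.6 FPKM in treated and 13.6 FPKM in vehicle MKN45. POLH, the polymerase that copies past ultraviolet damage, was higher in treated HGC27, at 4.64 FPKM against 2.73 FPKM in the vehicle, and lower in treated MKN45, at 2.01 FPKM against 2.83 FPKM in the vehicle. Of the 3 members whose windows hold the consensus match, DDB2 was thus lower in both treated lines, MDM2 higher in both, and AEN higher in treated MKN45 alone.

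Of the 6 metabolic members CES2 fell and none rose. FDXR, the reductase that feeds electrons to mitochondrial ferredoxins, had 2.17 FPKM in treated and 4.39 FPKM in vehicle HGC27. It had 3.26 FPKM in treated and 7.25 FPKM in vehicle MKN45, with a fitted log2 fold of -0.86 ± 0.29 (limma adjusted p = 0.0937). TP53I3, a quinone oxidoreductase, had 5.99 FPKM in treated and 10.4 FPKM in vehicle HGC27, and 3.25 FPKM in treated and 6.07 FPKM in vehicle MKN45, a fitted -0.72 ± 0.28 (limma adjusted p = 0.134). Both lay lower in each treated library and did not pass, except with libraries scaled to their totals alone, where limma adjusted p were 0.0286 for FDXR and 0.0421 for TP53I3. ACER2, a Golgi ceramidase, lay the other way, with 1.70 FPKM in treated and 0.190 FPKM in vehicle HGC27 and 2.62 FPKM in treated and 1.23 FPKM in vehicle MKN45. ACER2 rested on 111 reads in treated and 17 reads in vehicle HGC27, was under the minimum in that line, and did not pass (fitted 0.94 ± 0.32, limma adjusted p = 0.0992). TIGAR, a phosphatase that slows glycolysis, was close to level, at 4.34 FPKM in treated and 3.74 FPKM in vehicle HGC27 and 2.62 FPKM in treated and 2.21 FPKM in vehicle MKN45. In the GENCODE release used here, another gene model on the same strand covers 42.6% of the TIGAR exons. The annotation behind the FPKM is not stated, so whether TIGAR reads were split between these models was not tested. SESN1, a sestrin that restrains mTORC1, had 1.45 FPKM in treated and 0.959 FPKM in vehicle HGC27, and 1.22 FPKM in treated and 1.39 FPKM in vehicle MKN45.

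In the group of apoptosis and survival TRIAP1 rose and none fell. AEN, an exonuclease that enhances apoptosis, had 36.2 FPKM in treated and 13.8 FPKM in vehicle MKN45. The log2 ratio of AEN in MKN45 was 1.39 with a 95% counting interval of 1.33 to 1.46. In HGC27 AEN had 6.32 FPKM in the treated and 7.32 FPKM in the vehicle library, so the fit over both lines was 0.57 ± 0.37 (limma adjusted p = 0.335). PERP had 10.2 FPKM in treated and 7.15 FPKM in vehicle HGC27, and 196 FPKM in treated and 103 FPKM in vehicle MKN45. It was higher in each treated library and did not pass (fitted 0.69 ± 0.28, limma adjusted p = 0.144). ZMAT3, an RNA-binding zinc finger protein, had 1.59 FPKM in treated and 1.42 FPKM in vehicle HGC27, and 6.18 FPKM in treated and 4.48 FPKM in vehicle MKN45. PHLDA3 had 4.42 FPKM in treated and 4.76 FPKM in vehicle MKN45, a difference within counting error. Another model on the same strand covers 19.1% of its exons. In HGC27 PHLDA3 had 0 reads in the treated and 8 in the vehicle library. PIDD1, the scaffold of the complex that activates caspase-2, was lower in each treated library, at 2.18 FPKM in treated and 3.89 FPKM in vehicle HGC27 and 0.788 FPKM in treated and 1.94 FPKM in vehicle MKN45 (fitted -0.67 ± 0.30, limma adjusted p = 0.181). CYFIP2 had 1.497 FPKM in treated and 5.52 FPKM in vehicle MKN45, 3.69-fold lower in the treated library. TP53INP1, a nuclear stress protein, was low everywhere, with 0.429 FPKM in treated and 0.983 FPKM in vehicle HGC27 and 0.0892 FPKM in treated and 1.24 FPKM in vehicle MKN45, and in MKN45 it rested on 12 reads in the treated and 257 in the vehicle library. CDIP1, a pro-apoptotic membrane protein, had 1.89 FPKM in treated and 1.42 FPKM in vehicle MKN45. TNFRSF10C, a decoy receptor for the death ligand TRAIL, had 9 reads in treated and 26 reads in vehicle MKN45, and other models on the same strand cover 25.96% and 13.3% of its exons.

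The 3 genes of autophagy and membranes were lower in treated than in vehicle MKN45. DRAM1 had 0.226 FPKM in treated and 1.15 FPKM in vehicle HGC27. It had 2.85 FPKM in treated and 10.97 FPKM in vehicle MKN45. DRAM1 was thus 5.08-fold lower in treated HGC27 and 3.85-fold lower in treated MKN45. In HGC27 it was under the minimum, on 21 reads in the treated and 146 in the vehicle library. Its fitted log2 fold of -1.22 ± 0.33 lay just outside the threshold (limma adjusted p = 0.0541) and passed with limma-voom on recovered reads (adjusted p = 0.0257), with a pseudocount of 0.1 (limma adjusted p = 0.0219) and with library totals alone (limma adjusted p = 0.0148). With quantile normalization it was -0.996 and did not pass (limma adjusted p = 0.135). SPATA18, which acts in mitochondrial quality control, had 0.137 FPKM in treated and 1.11 FPKM in vehicle HGC27, and 0.270 FPKM in treated and 1.39 FPKM in vehicle MKN45. That is 8.12-fold lower in treated HGC27 and 5.14-fold lower in treated MKN45, on 16 and 32 reads in the treated and 178 and 254 reads in the vehicle libraries. NINJ1, a protein of membrane rupture, had 12.5 FPKM in treated and 12.0 FPKM in vehicle HGC27, and 3.03 FPKM in treated and 3.89 FPKM in vehicle MKN45.

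**Figure D3:**
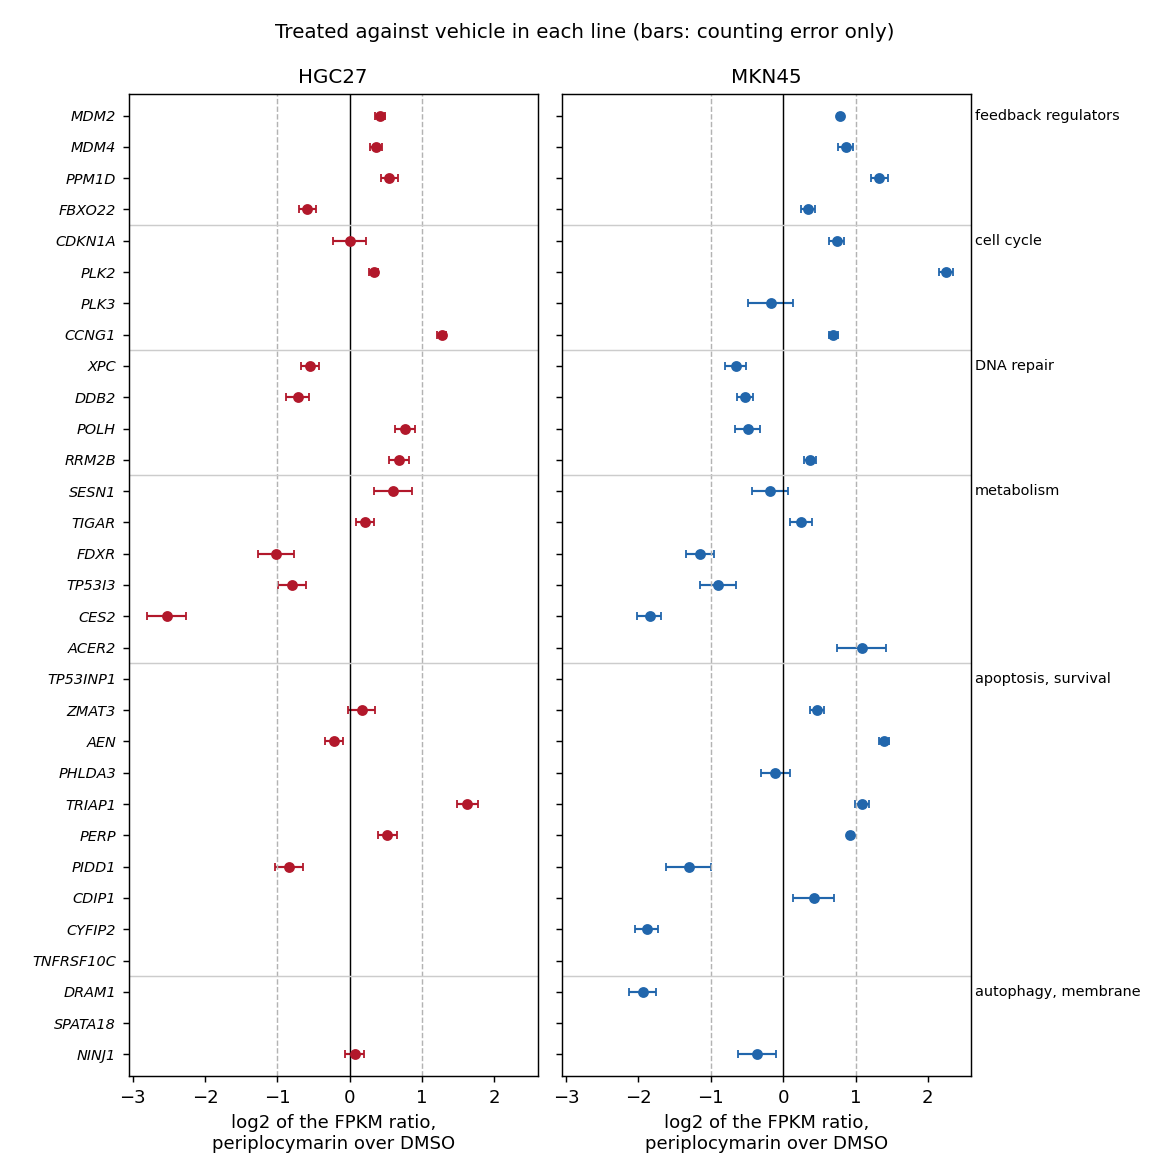
Log2 of the FPKM ratio, periplocymarin over DMSO, for each member measured in HGC27 (left) and in MKN45 (right), with rows grouped by role. Bars are 95% exact binomial intervals of counting error alone, and dashed lines mark a 2-fold ratio. PLK2, PPM1D, AEN, TRIAP1 and ACER2 lie past the upper line in MKN45, and DRAM1, CYFIP2, CES2, PIDD1 and FDXR past the lower line. In HGC27 CCNG1 and TRIAP1 lie past the upper line, and CES2 and FDXR past the lower line.

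Members at higher levels were more often above 0. Among MKN45 members at 10 FPKM or more on average 8 of 9 were higher in the treated library, and among those from 1 to 10 FPKM 7 of 19. Over all MKN45 genes the median difference was -0.29 at 1 to 3 FPKM, 0.024 at 3 to 10 FPKM, 0.32 at 10 to 30 FPKM, 0.44 at 30 to 100 FPKM and 0.22 above that. In HGC27 all 4 members at 10 FPKM or more were higher in the treated library, and 10 of 18 from 1 to 10 FPKM. The median over all HGC27 genes was -0.35 at 1 to 3 FPKM, 0.055 at 3 to 10 FPKM, 0.41 at 10 to 30 FPKM, 0.64 at 30 to 100 FPKM and 0.52 above that. Below 10 FPKM the members did not follow the order over all genes. Their median was -0.10 at 1 to 3 FPKM and -0.42 at 3 to 10 FPKM in MKN45, and 0.21 and -0.092 in HGC27, where 2 members lay in the lowest band. The part of level in the members' directions was not tested.

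The direction of the smaller differences depends on how libraries are scaled. The deposited FPKM carry a composition factor, and with libraries scaled to their totals alone the median of all measured genes moved by -0.28 in HGC27 and -0.18 in MKN45. The members then above 0 were 9 of 22 in HGC27, against 14 on the deposited scale, and 15 of 28 in MKN45 on both scales. Of all measured genes, 55.4% in HGC27 and 53.5% in MKN45 were above 0 on the deposited scale. CDKN1A, PLK2, TIGAR, ZMAT3 and NINJ1 turned downward in HGC27 on that scale. With quantile normalization PLK2 and NINJ1 turned downward in HGC27, and PLK3 and SESN1 upward in MKN45. On the totals scale 1 member rose and 4 fell over both lines, against 1 and 1 on the deposited scale. Of all genes past limma, 23.9% were upward on the totals scale and 36.6% with quantile normalization, against 51.5% on the deposited scale.

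**Figure D4:**
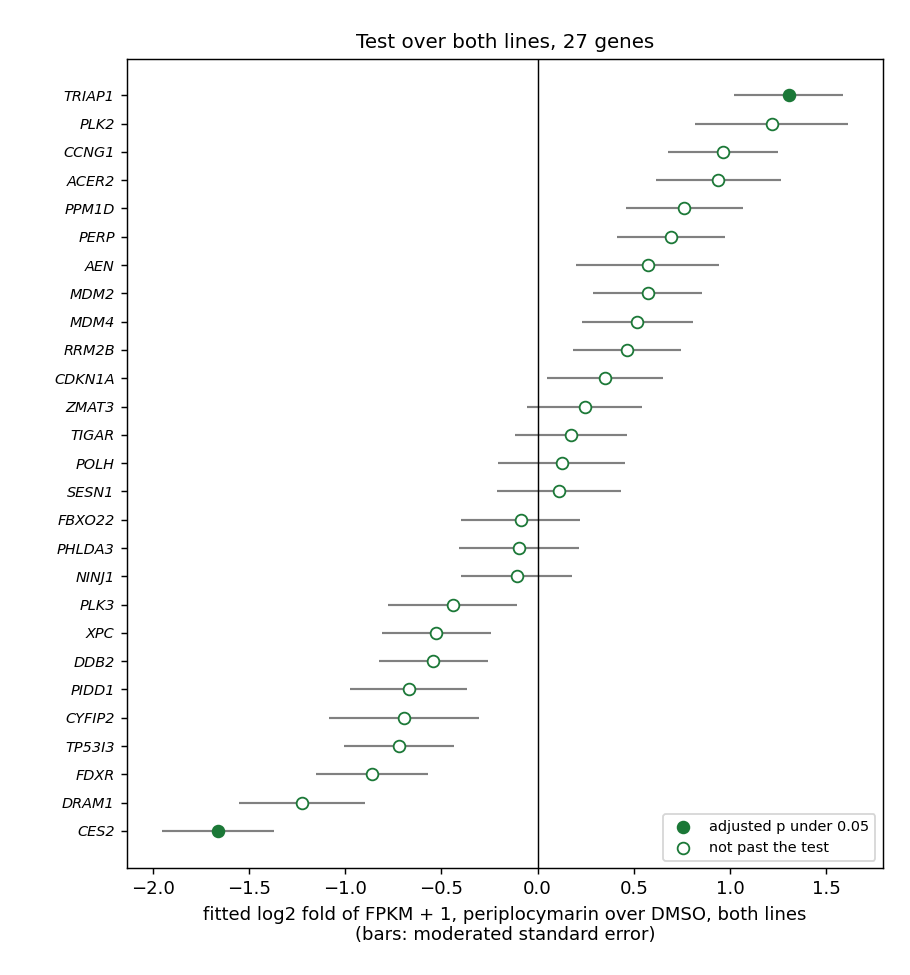
Fitted log2 fold of FPKM + 1, periplocymarin over DMSO, over both lines for the 27 members tested, in order of size, with bars for limma's moderated standard error. Filled points have an adjusted p under 0.05 and are TRIAP1 at the top and CES2 at the bottom, while the other 25 are open.

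Other p53 targets were counted on the list of 44 genes that are not members. Of 43 tested 1 rose and 1 fell, a share of 4.65% against 6.78% of all genes tested. The median of their fitted log2 folds was 0.098, against 0.061 over all genes. TNFRSF10A, a death receptor for TRAIL, rose by 1.25 ± 0.29 on the log2 scale (limma adjusted p = 0.0383), with 7.91 FPKM in treated and 3.44 FPKM in vehicle HGC27 and 33.5 FPKM in treated and 11.2 FPKM in vehicle MKN45. SESN2, a relative of SESN1, had a fitted log2 fold of -1.34 ± 0.28 and fell (limma adjusted p = 0.0310), with 4.75 FPKM in treated and 15.0 FPKM in vehicle HGC27 and 9.18 FPKM in treated and 22.7 FPKM in vehicle MKN45. The genes with the next largest difference in a line did not pass limma on the deposited scale over the 12374 genes. GDF15, a secreted stress cytokine, had 0.366 FPKM in treated and 32.1 FPKM in vehicle HGC27, lower in the treated library. It had 177 FPKM in treated and 66.8 FPKM in vehicle MKN45, higher in the treated library. Despite these opposite directions GDF15 passed with a floor of 10 FPKM (limma adjusted p = 0.0041). BBC3, which encodes the death protein PUMA, had 0.267 FPKM in treated and 1.18 FPKM in vehicle HGC27. It had 0.434 FPKM in treated and 3.18 FPKM in vehicle MKN45, lower in both treated libraries. BBC3 passed with library totals alone, a pseudocount of 0.1 and limma-voom on recovered reads, with limma adjusted p of 0.0338, 0.0291 and 0.0318. With quantile normalization it did not (limma adjusted p = 0.206). The receptor EPHA2 had 9.12 FPKM in treated and 4.76 FPKM in vehicle HGC27 and 136 FPKM in treated and 50.8 FPKM in vehicle MKN45, and the growth factor KITLG 6.63 FPKM in treated and 3.10 FPKM in vehicle HGC27 and 19.3 FPKM in treated and 7.53 FPKM in vehicle MKN45, both higher in the treated libraries. BTG2, an antiproliferative gene, had 8.56 FPKM in treated and 2.96 FPKM in vehicle HGC27 and 9.40 FPKM in treated and 9.25 FPKM in vehicle MKN45, apart in HGC27 alone. TGFA, an EGF receptor ligand, had 12.9 FPKM in treated and 4.36 FPKM in vehicle MKN45. HEXIM1, an inhibitor of the elongation kinase P-TEFb on the list of upstream genes, had 17.0 FPKM in treated and 12.8 FPKM in vehicle HGC27 and 6.77 FPKM in treated and 16.8 FPKM in vehicle MKN45.

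In GRCh38 with GENCODE 29, TRIAP1 lies on chromosome 12 from 120443961 to 120446412 on the minus strand, and no other gene model shares its exons. CES2 lies on chromosome 16 from 66934444 to 66945096 on the plus strand, where models without a gene symbol cover 437 of its 5343 exonic bases on the opposite strand and 147 on the same strand. MDM2 lies on chromosome 12 from 68808176 to 68850686, AEN on chromosome 15 from 88621296 to 88632282 and DRAM1 on chromosome 12 from 101877351 to 102012130, all on the plus strand. PLK2 lies on chromosome 5 from 58453982 to 58460260 on the minus strand.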

How the data were processed

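Libraries of bead-captured mRNA from HGC27 and MKN45, 1 per line and treatment, were grouped by the labels. The authors deposited FPKM for 62710 genes. No header names the unit, which was inferred from the values. Per the submitters' processing notes, hg38, HISAT2 2.1.0 and fastp 2.0 are named, in no stated order. The gene counter, the annotation and the strand setting are not stated. Overlaps between gene models are given for GENCODE exons, which need not be the exons behind the FPKM. Symbols matched 62639 identifiers.

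Each library's value of 1 read was found from low values at GENCODE 29 lengths. Of 25904 genes above 0 in at least 2 libraries, 25903 gave whole reads within 0.0001, 10865 of them at the GENCODE 29 length and the rest at a length searched to fit, as the multiple of the shortest fitting length nearest to GENCODE 29's where it has one. Tested on simulated data, 200 of 200 genes with 1 to 10 reads were recovered exactly. Reads served for depth, counting intervals (exact binomial, 95%) and alternatives. For measured members these intervals reached a median of 0.14 (log2) to either side.

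Within-line differences use log2(FPKM + 1), so low genes appear closer together than their ratio. limma 3.58.1 (R 4.3.3) was fitted over both lines to log2(FPKM + 1), blocked by line, using eBayes with trend, for genes averaging 1 FPKM and 10 reads or more. It has 1 residual and 8.59 prior degrees of freedom, so its SE draws mostly on other genes and can be smaller than the lines' own disagreement. The lines stand in for replicates, and nothing says that libraries came from separate cultures. On simulated data over 12374 genes it called 37.8% of 2-fold and 97.0% of 4-fold changes, with 3 calls among 37122 genes when none was changed. False calls made up 10.6% of calls in the 2-fold and 7.62% in the 4-fold simulations, above the nominal 5%. These 2 simulations each used a fixed spread and changed 600 of 37122 genes drawn, by the same fold in both lines. Such rates need not hold where the lines disagree or the spread is different. Members and lists were chosen with earlier results of these data known. All members were named, and from the other lists genes past the test and those with the largest difference in a line, up to 10. Some genes of these lists are not reported here. Alternatives were library totals alone, quantile normalization, a pseudocount of 0.1, a floor of 10 FPKM, no filter on low values, limma-voom on recovered reads (library sizes as implied by the deposited FPKM) and no line block. TMM library sizes for limma-voom were run first, and both versions had been seen when the other was chosen. Leaving out a line leaves 1 library per arm and no test, and its values are the within-line differences. Promoter windows are from RefSeq.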

Additional observations from a re-analysis of the deposited data

Results flagged for a closer look

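Measured members were compared for a difference, treated minus vehicle, that was upward in one line and downward in the other by more than counting error in each. There were 3 of them. The same count was not made over all genes, so 3 cannot be read as many or few. AEN differed by -0.18 in HGC27 and by 1.33 in MKN45 on the log2(FPKM + 1) scale. POLH differed by 0.60 in HGC27 and by -0.35 in MKN45. FBXO22 differed by -0.47 in HGC27 and by 0.29 in MKN45. With 1 library per line and treatment the difference between lines was not tested.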

How the results depend on the processing

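The count of members past the limma test, 1 rose and 1 fell, moved with most settings: to 0 and 1 with quantile normalization, 1 and 4 with library totals alone, 2 and 2 with a pseudocount of 0.1, 3 and 0 with a floor of 10 FPKM, and 2 and 2 with limma-voom at the library sizes of the deposited FPKM. Over all genes 432 rose and 407 fell, against 202 and 350, 366 and 1167, 755 and 734, 1049 and 199, and 854 and 669 in the same order. With TMM library sizes, seen before that version was chosen, limma-voom gave 1 and 2 members and 505 and 750 genes, so that 40.2% of calls were upward, against 56.1%. With no replicate block for the line, or with no filter on low values, limma called 0 members and 0 genes. Without the block an unadjusted limma p under 0.05 was then reached by 2 of 27 members and by 695 of 12374 genes (5.62%). Without the filter it was reached by 9 of 31 members and by 4306 of 32364 genes (13.3%), a pool that takes in the low genes. The cause of these moves was not tested, except that the floor left 8 of 27 members in the test. Members at least 2-fold higher in HGC27 went to 1 with totals and to 1 with quantile normalization (2 as reported), and those lower to 3 with totals and 0 at the floor (1 as reported). In MKN45 those higher went to 2 with totals (4 as reported), and those lower to 5 at a pseudocount of 0.1 and 0 at the floor (3 as reported). With totals the fitted folds of POLH, SESN1 and TIGAR, none past the test, turned to -0.082, -0.042 and -0.046. Of the 26 member windows 1 held the pair of cores (3.85%, against 0.472% of all genes) and 11 a single core (42.3%, against 60.6%). Up to 1, 2 and 3 differences from the consensus were met in 1, 3 and 7 members (3.85%, 11.5% and 26.9%). The shares over all genes were 0.121%, 0.820% and 6.39%. Depth limits members with few reads, such as SPATA18, TP53INP1 and TNFRSF10C.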

Other observations

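Of 24 genes of the p53 family and its upstream control, 23 were tested with limma over both lines and none passed, while 4 had an unadjusted p under 0.05, as did 28.4% of all genes. Their median fitted log2 fold was 0.34, against 0.061 over all genes. This lean depended on the scaling. With libraries scaled to their totals alone their differences had a median of 0.047 in HGC27 and 0.024 in MKN45, against 0.38 and 0.24 on the deposited scale, and 11 of 21 and 13 of 22 were above 0, against 18 and 16. The genes named here were chosen after their values were seen. CHEK1, a checkpoint kinase, had 22.7 FPKM in treated and 13.0 FPKM in vehicle HGC27 and 32.4 FPKM in treated and 15.2 FPKM in vehicle MKN45 (limma adjusted p = 0.0753). USP7, which removes ubiquitin from MDM2 and p53, had 30.3 FPKM in treated and 16.0 FPKM in vehicle HGC27 and 48.4 FPKM in treated and 29.9 FPKM in vehicle MKN45. The acetyltransferases EP300 and CREBBP, coactivators of p53, were also higher in each treated library, with fitted log2 folds of 0.73 ± 0.28 and 0.81 ± 0.28 (limma adjusted p = 0.124 and 0.0980). CDKN2A, whose ARF product inhibits MDM2, had 24.3 FPKM in treated and 25.1 FPKM in vehicle HGC27, and 0.0216 FPKM in treated and 0.0349 FPKM in vehicle MKN45. ATM, the kinase that signals DNA breaks, was lower in each treated library, at 1.14 FPKM in treated and 2.14 FPKM in vehicle HGC27 and 0.643 FPKM in treated and 1.47 FPKM in vehicle MKN45. Of the p53 relatives, TP73 had 0.433 FPKM in treated and 0.440 FPKM in vehicle HGC27 and 3.25 FPKM in treated and 2.87 FPKM in vehicle MKN45, and TP63 was under 1 FPKM in all 4 libraries.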
